A study of Mus musculus with 4 samples.

Results

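The stress keratins Krt6a, Krt6b, Krt16 and Krt17 were described across 7175 and 6912 single keratinocytes in 2 RNA libraries of a mouse line. The genes were picked out by symbol, a choice made with earlier results of these data known. All 4 were found once among the 32285 genes of the count files. The study combined single-cell RNA sequencing with heritable DNA tags in MK cells, a mouse keratinocyte line grown in E low medium with 15% fetal bovine serum. GFP-positive cells that carried a tag were sorted and captured in droplets with the 10x Genomics 3′ v3 chemistry, which counts RNA molecules at their 3′ ends by unique molecular identifiers (UMIs). The samples form 4 groups of 1 library each. The MK cells gave an RNA library and a tag library, and so did the Diff_MK cells. All of them list Dox as treatment, so no sample without it was compared, and the meaning of Diff is not given in the labels.

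Keratins form the intermediate filaments of epithelial cells as obligate pairs of a type II and a type I protein. Krt6a and Krt6b encode type II keratins, and Krt16 and Krt17 encode type I keratins with which they pair. In skin these genes are active mainly in hair follicles, nails, palms and soles, and they are induced in the epidermis at wound edges and in hyperproliferative disease, which gave them the name stress keratins. Krt5 and Krt14, the pair of the resting basal layer, served as comparison genes.

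The count files held 7780 MK and 7569 Diff_MK cell barcodes, and 7175 and 6912 of them passed a filter of at least 1000 genes with mitochondrial UMIs not above 15%. The kept cells carried 115181759 and 103885150 UMIs, with medians of 15599 and 14223.5 per cell. Of the kept barcodes, 9 occurred in both libraries. The cells matched their label. Krt14 was detected in 99.9% of MK and 99.97% of Diff_MK cells, and of the markers of other cell types 0 of 5 melanocyte, 0 of 6 fibroblast and 0 of 4 endothelial genes reached 5 CPM (summed UMIs of a gene per 1000000 UMIs of the library). Of 6 immune genes, Cd68 did so, at 6.25 and 5.20 CPM. The summed level of each of these lists lay between 0.347 and 6.43 CPM. With 1 library per group there is no replicate check and no test between groups, and every interval below is an exact 95% interval that covers counting error only.

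On GRCm38 the members lie in the 2 keratin gene clusters of the mouse genome, all on the minus strand. Krt6b (ENSMUSG00000023041) spans chr15:101676023-101680287 and Krt6a (ENSMUSG00000058354) chr15:101689910-101694307, with Krt5 as their neighbour at chr15:101707070-101712898. Krt16 (ENSMUSG00000053797) spans chr11:100246091-100248902 and Krt17 (ENSMUSG00000035557) chr11:100256217-100261029, with Krt14 nearby at chr11:100203162-100207548. The coding sequences of Krt6a (1659 bases) and Krt6b (1662 bases) aligned with 97.6% identity, 37 mismatches and 3 gap positions. Their last 60 coding bases, in the final coding exon of each gene, are shown because they mark where the near-identical stretch ends. Capitals mark bases that differ between both genes or have no partner in the other.
Krt6a, chr15:101690470-101690529, minus strand: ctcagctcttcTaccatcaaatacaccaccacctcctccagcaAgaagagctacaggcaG
Krt6b, chr15:101676532-101676591, minus strand: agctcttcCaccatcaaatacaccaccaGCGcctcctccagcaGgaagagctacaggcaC
Beyond them the genes diverge, and the last 500 transcript bases, from which 3′ reads mostly come, were 69.8% identical. Of 410 windows of 91 bases in these ends, 0 of Krt6a, 0 of Krt6b and 0 of Krt17 occurred in a transcript of another gene of GENCODE vM21. For Krt16, 17 of 410 occurred in Gm11597, a gene that is not among those counted. Krt6a and Krt6b counts can therefore be told apart by reads from these ends, while reads from the coding part could have been left out or divided.

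All 4 stress keratins were higher in the Diff_MK library. Krt6a was the most abundant, at 1783 CPM in MK (interval 1776 to 1791) and 3129 CPM in Diff_MK (3118 to 3140), a ratio of 1.75 (1.74 to 1.76). Krt6b was the rarest, at 10.4 CPM and 46.9 CPM, and had the highest ratio, 4.51 (4.23 to 4.81). Krt16 had 182 and 524 CPM, a ratio of 2.88 (2.83 to 2.92), and Krt17 had 297 and 454 CPM, a ratio of 1.53 (1.51 to 1.55). By UMIs, which count molecules regardless of transcript length, the order was Krt6a, Krt17, Krt16, Krt6b in MK. Krt16 and Krt17 traded places in Diff_MK, the UMIs of Krt17 per UMI of Krt16 being 1.63 and 0.868.

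The ratios were read against all genes that reached 10 CPM in either library, which were not matched to the members by level. Of 4 members, 2 (Krt6b and Krt16) were at least 2-fold higher in Diff_MK, against 1.82% of the 7736 genes that reached 10 CPM in either library. All 4 were at least 1.5-fold higher, against 4.51% of these genes, and 0 were at least 2-fold lower, against 0.776%. Under scaling by the median ratio of genes, 187 genes were at least 2-fold higher and 30 lower, in place of 141 and 60. Of the 7736 genes, 0.323% had a higher ratio than Krt6b, 0.763% than Krt16, 2.53% than Krt6a and 4.08% than Krt17. The comparison genes Krt5 (1152 and 3140 CPM, ratio 2.73) and Krt14 (6295 and 12790 CPM, ratio 2.03) were higher as well. Krt6a and Krt17 thus had lower ratios than both basal keratins. The members' share of all UMIs was 0.227% in MK and 0.415% in Diff_MK, while their share of keratin UMIs was 22.4% and 18.6%.

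The ratios of the members depended on which cells were included. Without the 1% of cells highest in the gene, Krt16 had a ratio of 3.83, while that of Krt6b, 4.39, stayed within its interval. Without clusters 7 and 8, groups of cells described below that were left out after their high levels had been seen, the first of them found in Diff_MK alone, the ratio of Krt6b was 1.69 and that of Krt16 was 1.79. Krt6a then had a ratio of 1.38 and Krt17 one of 1.63.

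**Figure D1:**
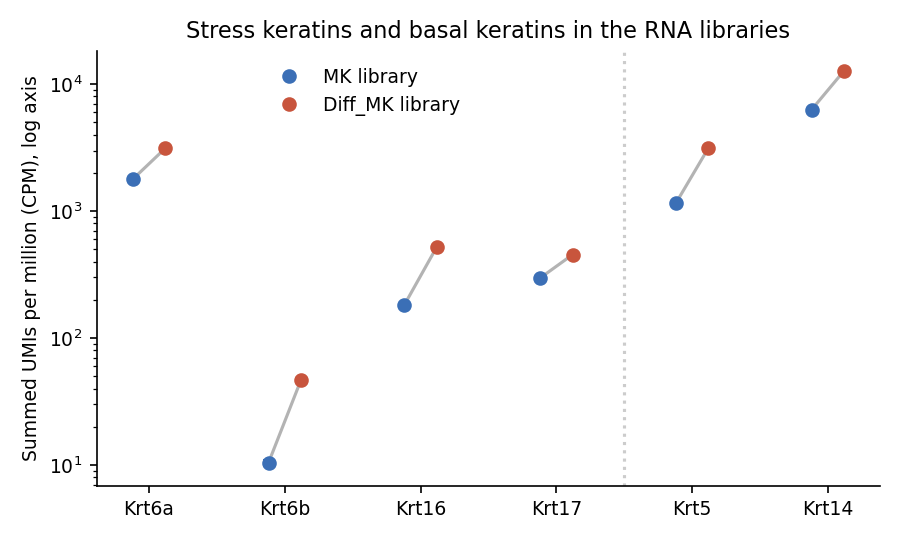
Summed UMIs in CPM (log axis) of the 4 stress keratins and of the basal keratins Krt5 and Krt14 in the MK and Diff_MK libraries, 1 library each, with exact 95% Poisson intervals that are mostly smaller than the points. Each gene is higher in Diff_MK, with ratios from 1.53 for Krt17 to 4.51 for Krt6b.

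Among cells, the members differed in how widely they were detected. With every cell thinned to 7500 UMIs, which left 6838 MK and 6277 Diff_MK cells, Krt6a had at least 1 UMI in 96.8% (96.3 to 97.2%) and 98.8% (98.5 to 99.04%) of cells. Krt16 had one in 25.4% (24.4 to 26.5%) and 40.7% (39.5 to 41.9%), and Krt6b in 2.28% (1.94 to 2.66%) and 5.05% (4.52 to 5.62%). Without thinning these shares were 98.5% and 99.4% for Krt6a, 37.5% and 52.9% for Krt16, and 4.31% and 6.81% for Krt6b. No cell type that lacks keratins was present to measure free RNA, so low shares were not separated from it.

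Krt17 was the exception. It was detected in 62.5% (61.3 to 63.6%) of thinned MK cells and 51.3% (50.04 to 52.5%) of thinned Diff_MK cells, and in 76.4% and 58.97% without thinning, although its CPM was higher in Diff_MK. No order between the libraries is read from that share, since it goes against the level. Cells with 5 or more Krt17 UMIs made up 12.97% in MK and 20.7% in Diff_MK, and those with 20 or more 1.18% and 3.14%. The median thinned cell had 1 Krt17 UMI in each library, while the highest decile began at 5 UMIs in MK and at 9 in Diff_MK. These upper parts of the distribution were thus higher in Diff_MK, as the CPM was.

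Krt16 was spread less evenly over cells than Krt6a and Krt17. The top 10% of thinned cells held 87.6% of its UMIs in MK and 87.2% in Diff_MK, against 51.8% and 60.3% for Krt17 and 32.4% and 40.4% for Krt6a. For Krt14 they held 26.8% and 29.6%. The Fano factor of Krt16, the variance over the mean, was 48.4 in MK, rank 2 of 7514 genes, and 68.5 in Diff_MK, rank 10 of 7328. That of Krt6b was 17.02 and 35.9, with a mean of only 0.0739 and 0.372 UMIs per thinned cell. All 4 members were detected together in 1.16% of MK and 1.75% of Diff_MK cells, and none of them in 1.89% and 0.366%.

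**Figure D2:**
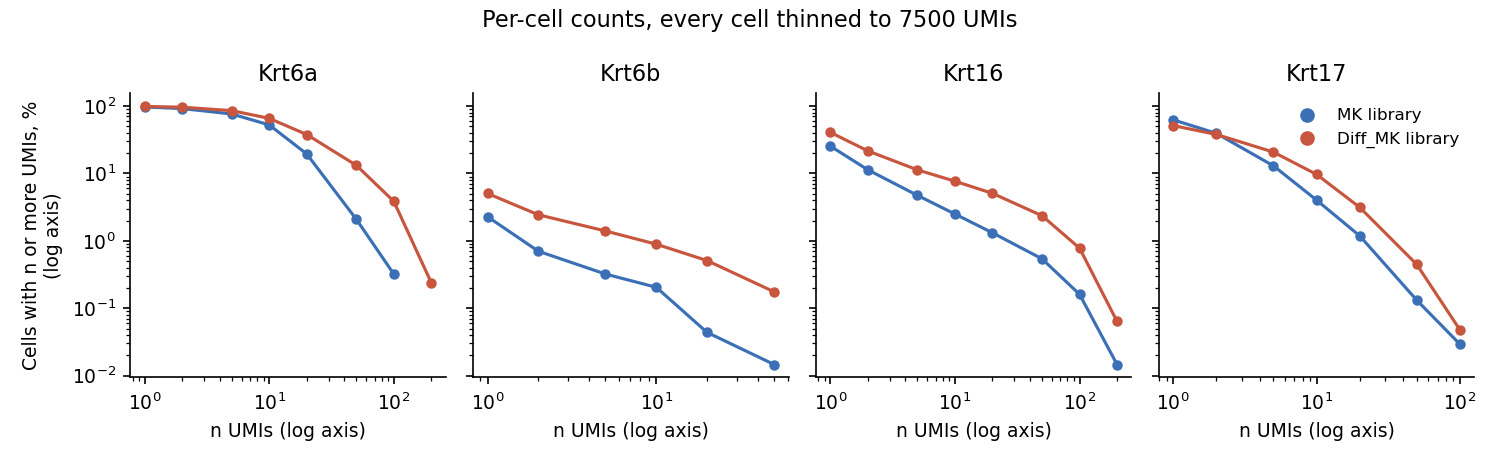
Percent of cells with n or more UMIs of each stress keratin (both axes log) in the MK and Diff_MK libraries, every cell thinned to 7500 UMIs. The lines of Krt17 cross, with 62.5% of MK and 51.3% of Diff_MK cells at 1 or more UMIs and 1.18% and 3.14% at 20 or more.

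Krt6a, Krt6b and Krt16 varied together across cells in both libraries, while over all cells of a library Krt17 was positively correlated with Krt6a and Krt16 in MK and weakly negatively in Diff_MK. Pearson correlations were taken on the log of thinned counts plus 1, within a library, and are descriptions over cells that share a library. In MK all 6 pairs of members were positive, and in Diff_MK 3 of 6 were. Krt6a and Krt16 had r = 0.47 in MK and 0.57 in Diff_MK, Krt6b and Krt16 0.42 and 0.52, and Krt6a and Krt6b 0.20 and 0.31. Without clusters 7 and 8, left out after seeing the data, these pairs stayed positive but were lower. Krt6a and Krt16 then had 0.41 and 0.40, Krt6b and Krt16 0.23 and 0.28, and Krt6a and Krt6b 0.12 and 0.14. Krt17 had r = 0.30 with Krt6a in MK but -0.10 in Diff_MK, 0.28 and -0.08 with Krt16, and 0.07 and -0.01 with Krt6b. The difference between the libraries was not tested.

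Krt16 was detected more often in cells with Krt6b. Of cells with a Krt6b UMI, 66.0% in MK and 83.6% in Diff_MK also had Krt16, against 25.4% and 40.7% of all cells. Of cells with Krt16, 99.02% and 99.3% had Krt6a, close to the 96.8% and 98.8% of all cells. Krt6b CPM went from 1.46 in MK cells without a Krt16 UMI to 529 in the 90 MK cells with 20 or more, and from 1.90 to 864 in Diff_MK, where 318 cells had 20 or more. Krt6a CPM over the same steps went from 1298 to 9585 in MK and from 1970 to 13970 in Diff_MK.

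Krt17 gave a different picture over these steps. In MK it was detected in 58.5% of cells without Krt16, 72.0% of cells with 1 to 4 Krt16 UMIs, 81.1% with 5 to 19 and 87.8% with 20 or more. In Diff_MK the shares were 57.2%, 46.8%, 33.0% and 30.5%. Krt17 CPM over the same steps was 225, 383, 1043 and 1412 in MK, in the same order as the share. In Diff_MK it was 418, 444, 482 and 667, in the opposite order to the share, so no order is read from the share there. Over steps of Krt6a (0, 1 to 4, 5 to 19, and 20 or more UMIs), Krt17 had 97.9, 150, 263 and 607 CPM in MK. Its share of cells there was 37.8%, 48.6%, 64.5% and 75.3%, in the same order. In Diff_MK, Krt17 had 260, 305, 456 and 479 CPM over these steps, but its share of cells was 63.2%, 67.7%, 56.6% and 38.5%. The level and the share thus differ in order in Diff_MK, and no rise of Krt17 with Krt6a is read there. Median depths before thinning in the groups by Krt16 lay between 14678 and 16395 UMIs in all 8 groups.

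**Figure D3:**
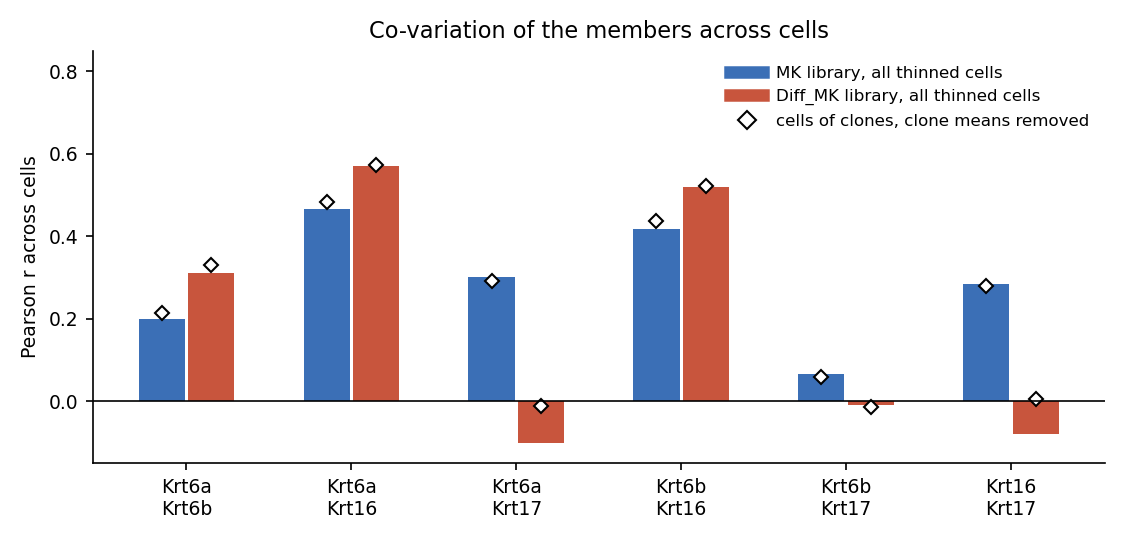
Pearson correlation of log thinned counts across cells for the 6 pairs of stress keratins in the MK and Diff_MK libraries (bars), and the same over cells of clones of 10 or more cells after subtracting each clone's mean (diamonds). The 3 pairs without Krt17 are positive in both libraries, while the pairs of Krt17 with Krt6a and Krt16 are at 0.30 and 0.28 in MK and at -0.10 and -0.08 in Diff_MK.

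The genes most like each member were ranked by the mean of r over both libraries, among about 8000 genes with a UMI in at least 5% of thinned cells of each. Krt6a was most like Krt14 (mean r 0.76 of 7997 genes), followed by Dmkn, which encodes the secreted epidermal protein dermokine, Krt5, the fatty acid binding protein gene Fabp5 and Sfn, which encodes the 14-3-3 protein stratifin. Krt16 was most like Krt6a (0.52), then Ly6d, Dmkn, Psca and Fabp5, of which Ly6d and Psca encode surface proteins of the Ly6 family. Krt6b was most like Krt16 (0.47), then the protease inhibitor gene Cst6, Ly6d, Clic3 and Psca. Krt17 had no gene so close. The list of Krt17 began with Tmsb4x (0.26), which encodes an actin-sequestering peptide, Sparc (0.24) and Stmn2 (0.23), followed by the small heat shock protein gene Hspb1 (0.21) and the tropomyosin gene Tpm1 (0.20).

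The genes most like Krt17 were also taken by library, after its correlations had been seen. In MK its 4 most similar genes were keratins, Krt14 (0.36), Krt5 (0.34), Krt6a (0.30) and Krt16 (0.28). In Diff_MK, Krt14 stood at -0.12, rank 8139 of 8212, and Krt5 at -0.11, while Sparc (0.35), Stmn2 (0.31) and Tmsb4x (0.30) led, the same 3 genes as in the mean over both libraries. The lowest values in Diff_MK were those of the ribosomal protein genes Rps14 (-0.31) and Rpl17 (-0.29) and of Lgals7 (-0.28), which stood at 0.04, 0.03 and 0.17 in MK.

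For the summed 4 members, of which Krt6a made up 78.5% and 75.3%, the 10 most similar genes were Krt14 (0.74), Dmkn, Krt5, Sfn, Fabp5, Ly6d, Krtdap, Sprr1b, Ahnak and Sbsn (0.41). Several of them, such as Krtdap, Sbsn and Sprr1b, are genes of differentiating suprabasal keratinocytes. The 5 lowest were Itgb1 (-0.34), the integrin beta chain by which basal cells hold to the matrix, mt-Nd2, Ptma, Pfn1 and Hmgn1 (-0.32).

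Clustering of both libraries, with the members left out of the clustering genes, gave 12 clusters, of which 10 had at least 50 cells in a library. High stress keratin levels were concentrated in 2 small ones. Cluster 8 held 110 MK and 134 Diff_MK cells and was led by late cornified envelope genes (Lce3c, Lce3d, Lce3e) with the prolactin-family genes Prl2a1 and Prl7b1 also among its top 10. Of 7 detected granular markers, genes of the outer living epidermal layers, 6 were at least 1.5-fold above the other cells. Cluster 7 held 467 Diff_MK and 0 MK cells and was led by the beta-defensin genes Defb4 and Defb14, Serpinb11, the desmosomal cadherin gene Dsg1b and Krt78. There 6 of 7 spinous and 5 of 7 granular markers exceeded the other cells at least 1.5-fold, while 0 of 62 cell cycle genes did. Cluster 8 shared this, with 6 of 7 spinous markers and no cell cycle gene that high. In clusters 1 and 2 no cell cycle gene was that high either. Since cluster 7 came from 1 library, it may stand for that library as much as for a state.

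All 4 members were high in cluster 8 in both libraries. They were lower in its Diff_MK than in its MK cells, opposite to the whole libraries, with overlapping intervals for Krt17 only. Krt6a had 9283 CPM in the MK cells and 8047 CPM in the Diff_MK cells of cluster 8, and Krt6b 427 and 339 CPM. Krt16 had 5620 and 4827 CPM there, and Krt17 1221 and 1142 CPM. The 110 MK cells of cluster 8 were 1.53% of that library. They held 64.1% of its Krt6b and 48.2% of its Krt16 UMIs, but 8.12% of Krt6a and 6.42% of Krt17 UMIs. In MK this was the highest cluster for all 4 members, and also for Krt14 (20845 CPM) and Krt5 (2598 CPM).

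Cluster 7 had the highest Krt6a, at 14109 CPM, and the highest Krt6b, at 568 CPM, with Krt16 at 4478 CPM. Its 6.76% of Diff_MK cells held 73.0% of the Krt6b, 51.6% of the Krt16 and 27.2% of the Krt6a UMIs of the library. Krt17 was at 131 CPM (interval 123 to 141), the lowest of the clusters of at least 50 cells in Diff_MK and under the library level of 454 CPM. It had 0.931 Krt17 UMIs per 100 of Krt6a, against 14.2 in the Diff_MK cells and 13.2 in the MK cells of cluster 8. Krt14 was highest in cluster 7 too, at 34914 CPM, while Krt5, at 6520 CPM, was exceeded in cluster 1 (6709 CPM). The 2 clusters thus shared high Krt6a, Krt6b and Krt16, together with high Krt14, and differed in Krt17.

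In the other clusters Krt17 followed another order than its partners. Cluster 2, led by the caspase gene Casp4, had the next highest Krt17, at 529 CPM in MK and 989 CPM in Diff_MK, with Krt6a at 1643 and 2173 CPM. Cluster 1, 1867 Diff_MK cells with Krt15, Clu and Lgals7 among the leading genes, had Krt6a at 3992 CPM but Krt17 at 233 CPM and Krt16 at 188 CPM. Cluster 3, which had Cdk1 and Fam83d among its leading genes, had the lowest Krt6a, at 819 and 1008 CPM, and the lowest Krt16, at 18.5 and 28.1 CPM, with Krt17 at 204 and 481 CPM. Within clusters the signs of Krt17 were mixed in Diff_MK. Krt6a and Krt17 were positively correlated within 6 of 8 Diff_MK clusters, from 0.06 in cluster 8 to 0.52 in cluster 5, and negatively in cluster 1 (-0.21) and cluster 4 (-0.06). Krt16 and Krt17 were positive in 3 of 8, at 0.55 in cluster 5, 0.07 in cluster 6 and 0.01 in cluster 8. In MK both pairs were positive in 5 of 5 clusters. Without cluster 7, a setting chosen after seeing the data, the correlation of Krt16 and Krt17 in Diff_MK was 0.00 and that of Krt6a and Krt17 -0.04.

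**Figure D4:**
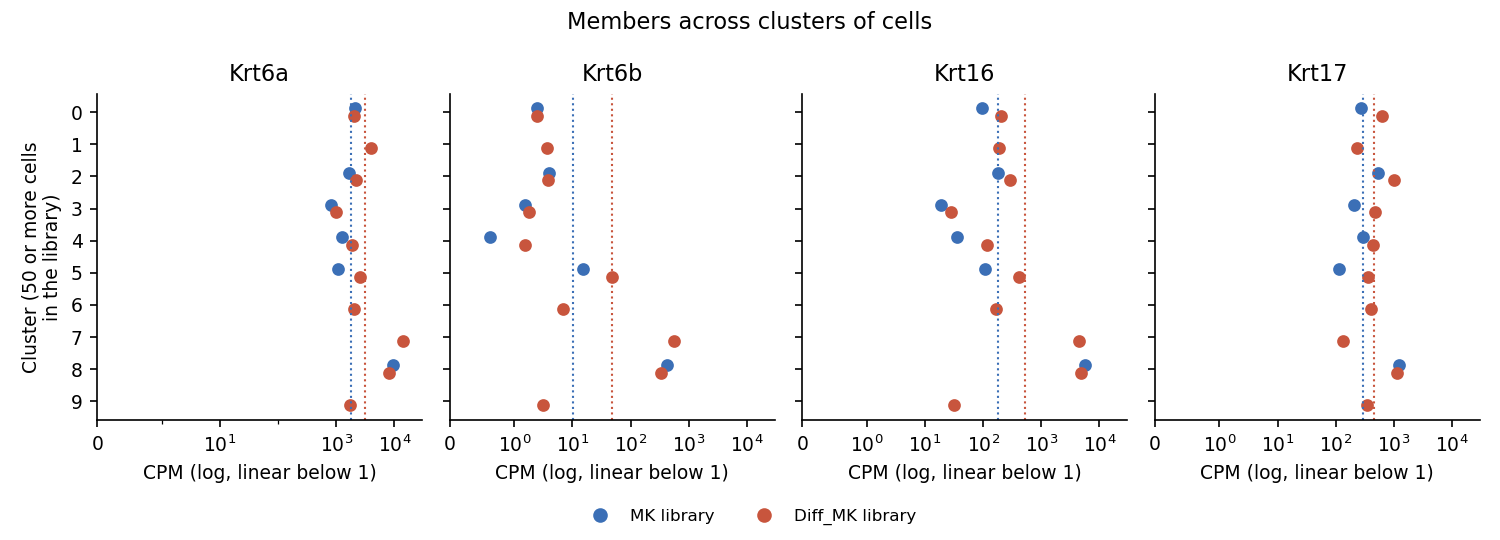
CPM (log axis, linear below 1) of each stress keratin in clusters with at least 50 cells of the library, built without the members, with the library levels as dotted lines. Clusters 7 and 8 are the highest for Krt6a, Krt6b and Krt16, while for Krt17 cluster 8 is high (1221 and 1142 CPM) and cluster 7 low (131 CPM).

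Cells with few cell cycle transcripts had more Krt6a, Krt6b and Krt16, and also more of the basal keratins Krt5 and Krt14. Cells were ranked by the summed thinned UMIs of 62 cell cycle genes and divided into 3 equal groups, which are ranges of a score and not cell types. From the lowest to the highest group, Krt16 had 423, 72.8 and 44.7 CPM in MK and 1247, 323 and 73.7 CPM in Diff_MK. Krt6a had 2066, 1700 and 1487 CPM in MK and 5998, 2456 and 1498 CPM in Diff_MK. Krt6b had 26.7, 2.16 and 0.702 CPM in MK and 131, 14.7 and 2.61 CPM in Diff_MK. Krt14 went the same way, with 7150, 6174 and 5421 CPM in MK and 24583, 10646 and 6751 CPM in Diff_MK. So did Krt5, with 1219, 1145 and 1045 CPM in MK and 5975, 2727 and 1744 CPM in Diff_MK. Krt17 followed the same order in MK, with 441, 266 and 197 CPM, but not in Diff_MK, where the middle group was highest (396, 535 and 396 CPM). The lowest group reached 38 cell cycle UMIs in MK and 6 in Diff_MK, so the groups do not cover the same range in both libraries.

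The DNA tags allowed the members to be followed in clones, the sets of cells with the same leading tag. Clones of at least 10 cells numbered 80 in MK and 62 in Diff_MK. Whether 1 tag always marks 1 ancestor was not tested. Of 29 clones with at least 10 cells in each library, Krt6a was higher in Diff_MK in 23, Krt6b in 21, Krt16 in 20 and Krt17 in 20. Of the 7736 genes, 16.3% were higher in at least 20 of the 29 clones. Krt5 was higher in 29 and Krt14 in 27. With a stricter rule for the leading tag (10 counts and 5 times the next), 25 clones were shared, and Krt6a was higher in 18, Krt16 in 17, Krt6b in 15 and Krt17 in 14, the last a share of 56% (34.9 to 75.6%).

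The level of a member in a clone of one library said little about its level in the other. Across the 29 shared clones the correlation of log CPM plus 1 between MK and Diff_MK was 0.03 for Krt6a, 0.05 for Krt16, 0.24 for Krt17 and 0.32 for Krt6b. For the comparison genes it was -0.05 (Krt5) and -0.01 (Krt14), so low values were not particular to the members. These are descriptions over clones that share 2 libraries, and small clones carry few Krt6b counts.

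By the share of variance between clones, Krt17 ranked first of all genes in Diff_MK. The intraclass correlation, the share of the variance of log thinned counts that lies between clones of at least 10 cells, was 0.415 for Krt17 in Diff_MK (60 clones, 4265 cells), rank 1 of 8256 genes with a median of 0.00374. This measure was chosen after seeing the data. The next gene was Arhgdib (0.322). In MK the value of Krt17 was 0.00383, rank 2211 of 8369 (79 clones, 2673 cells). Over its alternatives the Diff_MK value lay between 0.373 and 0.426.

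In Diff_MK the other members had lower values than Krt17, while in MK that of Krt6a was above it. No order of Krt16 and Krt17 is read in MK. It was reversed (0.00453 and 0.00514) without the 6% of cells with the highest doublet score. Krt6a had 0.0488 in MK, rank 1 of 8369 genes there but a small value, and 0.127 in Diff_MK, rank 43. Krt16 had 0.00474 and 0.0503, ranks 1811 and 283, and Krt6b -0.00413 and 0.00184. Krt14 stood at 0.0322 and 0.155. In Diff_MK, Krt17 was thus above Krt14, although its CPM was 454 against 12790.

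The values of single clones show the same. Of Diff_MK clones, clone 7 (160 cells) had 12.6 Krt17 CPM (interval 8.57 to 17.9), with a Krt17 UMI in 16.25% of its cells, and clone 8 (157 cells) had 1536 CPM (1486 to 1587), with a UMI in 88.5%. Clone 14 (82 cells) had 23.7 CPM and clone 23 (57 cells) 2110 CPM, in 98.2% of cells. The largest, clone 1 (539 cells), had 94.2 CPM in 24.5% of cells, and clone 4 (196 cells) 1168 CPM in 93.9%. Clone 1 also had 280 cells in MK, where its Krt17 was at 266 CPM, and clone 8 had 38 cells there, at 345 CPM. Both clones thus lay near each other in MK and far apart in Diff_MK.

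Across the 25 Diff_MK clones of at least 50 cells, Krt17 ranged from 12.6 to 2110 CPM, a factor of 167, with a median of 419 CPM. Krt6a ranged from 1445 to 6026 CPM in the same clones, a factor of 4.17, and Krt16 from 61.1 to 1814 CPM, a factor of 29.7. In the 16 MK clones of that size Krt17 ranged from 212 to 564 CPM, a factor of 2.66, Krt6a from 1508 to 2735 CPM and Krt16 from 71.5 to 716 CPM. The share of cells with a Krt17 UMI went from 16.25% to 98.2% among these Diff_MK clones and from 70.7% to 88.5% among the MK clones. Clones of at least 50 cells were fewer in MK, and the largest MK clone held 280 cells against 539 in Diff_MK. Clones of at least 10 cells were more numerous in MK, at 80 against 62.

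**Figure D5:**
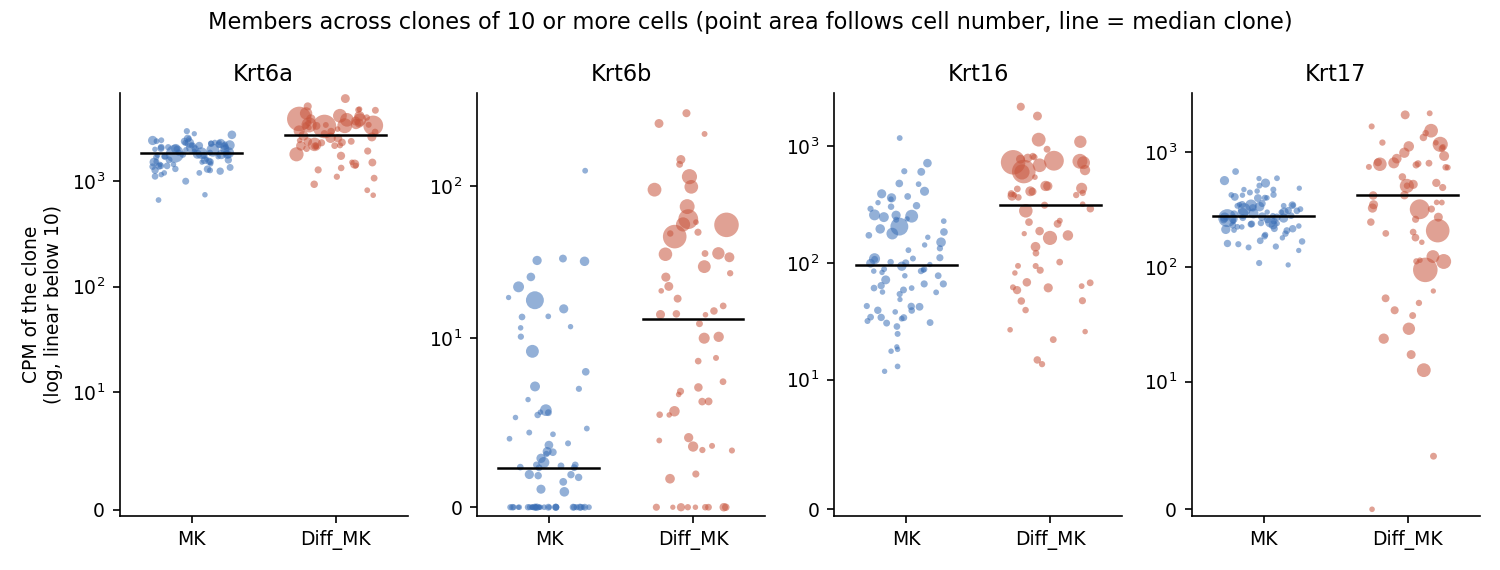
CPM (log axis, linear below 10) of each stress keratin in clones of 10 or more cells, 80 in MK and 62 in Diff_MK, with point area following the number of cells and a line at the median clone. Krt17 clones lie between 104 and 677 CPM in MK and between 0 and 2177 CPM in Diff_MK.

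The contrast between cluster 7 and the other cells was also present inside clones. Cells of cluster 7 came from 59 clones, the largest holding 50 of the 327 cells with a clone. In the 14 clones with at least 5 cells in cluster 7 (243 cells), Krt17 was lower in cluster 7 than in the rest of the clone in 14 of 14, with medians of 46.7 and 252 CPM. Krt6a was higher in 14 of 14 (13877 and 2747 CPM), Krt16 in 14 of 14 (5008 and 403 CPM) and Krt6b in 13 of 14 (558 and 5.91 CPM). The share of all genes with such counts was not taken, so the counts are not read as particular to the members. Cluster 7 cells of different clones still ranged from 0 to 735 CPM of Krt17.

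Subtracting each clone's mean brought 2 of the 3 correlations of Krt17 in Diff_MK nearer to 0. Over cells of clones, Krt6a and Krt17 went from -0.10 to -0.01 and Krt16 and Krt17 from -0.08 to 0.01, while Krt6b and Krt17 stayed at -0.01. In MK, Krt6a and Krt17 stayed at 0.29 and Krt16 and Krt17 at 0.28. Krt6a and Krt16 had 0.48 in MK and 0.57 in Diff_MK after the subtraction. Within single clones with at least 50 thinned cells, Krt16 and Krt17 were positively correlated in 16 of 16 MK clones and in 13 of 23 Diff_MK clones, with medians of 0.29 and 0.03. Krt6a and Krt16 were positively correlated in 16 of 16 and 23 of 23.

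Of the other keratins that reached 5 CPM in either library, most were higher in Diff_MK too. Of 9282 genes that reached 5 CPM in either library, 30.8% were higher in Diff_MK and the median log2 ratio was -0.16. Of type I keratins other than the members, 7 of 7 measured were higher, with a median log2 ratio of 2.34, among them Krt15 (1.02 and 708 CPM), Krt19 (251 and 1272 CPM), Krt32 (0.868 and 35.5 CPM), Krt13 (0.156 and 5.90 CPM), Krt18 (3.25 and 6.41 CPM) and Krt10 (27.0 and 29.1 CPM). Of these, Krt15, Krt32, Krt13 and Krt18 reached 5 CPM in Diff_MK alone, so their direction was fixed by that minimum. Krt20 (4.60 and 0.732 CPM) and Krt23 (1.83 and 0.433 CPM) were lower in Diff_MK but stayed under it. Of type II keratins 4 of 5 were higher, with a median of 1.45, and Krt78 among them reached 5 CPM in Diff_MK alone. Krt7 had 11.1 and 36.2 CPM and Krt78 2.66 and 21.6 CPM and Krt80 13.8 and 22.0 CPM, while Krt8, a keratin of simple epithelia, was lower at 93.0 and 72.3 CPM. Proteins that bind keratin filaments had 11 of 17 members higher and a median of 0.24. Of them Dsp, which anchors filaments at desmosomes, had 330 and 627 CPM, Sfn 1476 and 1604 CPM, and Eppk1, encoding the linker epiplakin, 7.51 and 18.1 CPM. The kinase gene Csnk1a1 had 327 and 404 CPM and Epb41l5 had the lowest ratio of the list, at 49.5 and 37.5 CPM.

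Genes that accompany stress keratins in activated epidermis differed in direction. Of alarmins and hyperproliferation genes 5 of 14 were higher and 9 lower, and the median log2 ratio was -0.43. At least 2-fold higher was 1 of them, and 3 were lower by as much, which became 2 and 2 relative to the median gene. Of all 9282 genes, 190 were at least 2-fold higher and 111 lower. Sprr1b, a cornified envelope gene, had 513 and 1191 CPM, while Lcn2, encoding lipocalin-2, had 51.3 and 6.94 CPM, the neutrophil chemokine gene Cxcl5 1515 and 908 CPM and the protease inhibitor gene Slpi 626 and 376 CPM. Of the EGF receptor and its ligands and partners, whose signalling is known to induce these keratins, 6 of 9 were higher (8 of 9 under median scaling) with a median of 0.21 and ratios from 0.855 for Ereg to 1.58 for Hbegf (57.6 and 91.1 CPM). The ligand genes Nrg1 and Areg had 81.8 and 89.1 CPM and 51.4 and 50.8 CPM. NRF2 targets had 6 of 11 higher and a median of 0.01, with Gsta4 at 85.5 and 157 CPM, Gclc at 45.8 and 65.7 CPM, Prdx1 at 1253 and 946 CPM and Slc7a11 at 16.8 and 8.15 CPM.

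Transcription factors reported for stress keratin promoters had 10 of 21 members higher, with a median of -0.01. Genes that reached 5 CPM in each library had a median log2 ratio of -0.15, and relative to it 13 of 21 factors were higher, with a median of 0.15. The median of the basal list also changed sign on that scale, from -0.08 with 5 of 14 members higher to 0.08 with 8 of 14. Jun had the highest ratio, 4.06 (37.7 and 153 CPM), and Fos, named after its value was seen, had 3.69 (99.7 and 368 CPM). Both encode subunits of AP-1. Fosl1, encoding another AP-1 subunit, had the lowest ratio, 0.525 (65.4 and 34.3 CPM). Junb, the most abundant of the list, had 447 and 527 CPM, Cebpb 350 and 297 CPM and Jund 233 and 329 CPM.

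Markers of differentiation and proliferation differed as well. Of granular markers 6 of 7 were higher in Diff_MK, with a median of 1.84, and of spinous markers 6 of 7 (7 of 7 relative to the median gene), with a median of 0.47. The granular markers Crct1 (0.564 and 26.1 CPM) and Asprv1 (4.91 and 51.2 CPM) reached 5 CPM in Diff_MK alone, which fixed their direction. Of G1/S genes 0 of 30 and of G2/M genes 1 of 32 were higher, with medians of -0.75 and -0.46. The part of these differences in the members' ratios was not tested.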

How the data were processed

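The deposited RNA matrices give raw UMI counts of each gene in each barcode, which the authors left unnormalized. Per the file headers, the software was Cell Ranger 6.1.2. The build was mm10, per the submitters' processing notes. The deposited tag matrices give raw counts of each tag in each barcode. The tool that counted tags, and whether these are UMIs or reads, is not given in the sources used here. Samples were grouped by title. The members and gene lists were chosen with earlier results of these data known.

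Cells with at least 1000 genes and at most 15% mitochondrial UMIs were kept. UMIs were summed and scaled to CPM. Intervals are exact Poisson (counts), conditional binomial (ratios) and Clopper-Pearson (shares), at the 95% level. Cells were thinned to 7500 UMIs for shares, correlations and clone statistics, leaving out 337 MK and 635 Diff_MK cells. Clusters come from scanpy 1.11.5 and leidenalg 0.10.2 (2000 variable genes without the members, 30 components, 15 neighbours, shared-neighbour weights, resolution 0.5, no integration). Leading genes of a cluster are those with the largest fold to the other cells at 20 CPM or more, without mitochondrial, ribosomal protein and Gm-numbered genes. Doublets were not removed. Scrublet's own threshold marked 13 MK and 22 Diff_MK cells (0.181% and 0.318%), too few to rely on, so leaving out the 6% of cells with the highest score (430 and 415 cells) was an alternative. Cells were put in 1 clone when they had the same leading tag, at 3 or more counts and 2 times the next, with tags matched over the shorter length. Gene positions, transcripts and sequences come from GENCODE vM21 on GRCm38, and coding sequences were aligned globally with Biopython 1.88. Ratio intervals, thinning and the intraclass correlation were tested on simulated data, the last on normally distributed values. Clustering, clone rules and correlations between genes were not.

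Named genes are the members, keratins at 5 CPM or more, the genes most and least like the members, and of each list those with the highest CPM or the largest ratios. Leading genes of clusters and of the clone ranking, the genes most like Krt17 in 1 library, and Fos are not covered by this rule and were picked with their values in view. RefSeq promoter and protein sequences of the members were not used here. Alternatives covered scaling, cell filters, doublets, depth, clustering and clone rules.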

Additional observations from a re-analysis of the deposited data

How the results depend on the processing

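The ratios of the members kept their direction under all alternatives run. Median scaling gave 1.95 for Krt6a, 5.01 for Krt6b, 3.20 for Krt16 and 1.70 for Krt17. Totals without mitochondrial and ribosomal protein genes gave 1.85 for Krt6a, 3.03 for Krt16 and 1.61 for Krt17, and totals without keratins 1.78 for Krt6a. Weighting cells equally gave 1.90, 2.95 and 1.47 for Krt6a, Krt16 and Krt17. At 2000 genes and 10% mitochondrial UMIs Krt6a had 1.73. Without the highest Scrublet scores Krt6a had 1.76 and Krt17 1.49. Without the 1% of cells highest in the gene, Krt16 had 3.83 and Krt17 1.49. In cells with a clone Krt6a had 1.69 and Krt16 2.71. Without clusters 7 and 8, chosen after seeing the data, the ratios were 1.38, 1.69, 1.79 and 1.63.

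Genes at least 2-fold higher and lower numbered 141 and 60, but 53 and 12 at a minimum of 50 CPM and 774 and 1104 at 10 or more counts. Those lower numbered 30 under median scaling and 120 with cells weighted equally. Shares of cells moved with depth. At 5000 UMIs they were 94.1% and 97.1% (Krt6a, MK and Diff_MK), 3.97% (Krt6b, Diff_MK), 20.7% and 33.1% (Krt16), and 52.0% and 45.6% (Krt17). Unthinned they were 98.5% and 99.4%, 4.31% and 6.81% (Krt6b), 37.5% and 52.9%, and 76.4% and 58.97%.

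The cluster of highest Krt6a stood at 5.21, 41.1, 30.9 and 4.11 times the MK level of Krt6a, Krt6b, Krt16 and Krt17. At resolution 1.0 these were 3.65, 18.9, 15.9 and 3.54. In Diff_MK, Krt6a went from 4.51 to 4.47 at resolution 1.0, and with members among the clustering genes Krt6a, Krt6b and Krt16 stood at 4.33, 11.2 and 8.06. Of shared clones, 85% (17 of 20) had higher Krt16 in Diff_MK at 20 or more cells. Over the clone rules the share ranged from 64% to 85% for Krt16, 72% to 90% for Krt6a, 60% to 85% for Krt6b and 56% to 72% for Krt17. The intraclass correlation of Krt17 in Diff_MK was 0.373 at 5000 UMIs. The correlations between members kept their signs in both libraries at 5000 UMIs, with Spearman's rho and without the highest Scrublet scores, although Spearman's rho of Krt6b and Krt16 was 0.18 in MK and 0.30 in Diff_MK.

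No paired analysis was possible because each group has 1 library. Counting error is small for Krt6a, Krt16 and Krt17 over whole libraries at these depths. It limits Krt6b in single clones, where 32 of 80 MK and 9 of 62 Diff_MK clones had 0 counts. It also limits Krt16 and Krt17 in clones with few counts. MK clone 74 had 2 Krt16 UMIs (interval 1.43 to 42.5 CPM) and Diff_MK clone 38 had 2 Krt17 UMIs (0.504 to 15.0 CPM). Variation between libraries of the same group was not measured, so no ratio can be set against it.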
